A study of Mus musculus with 12 samples.

Results

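The genotype difference in the 12 h response of follicular B cells to B cell receptor cross-linking was measured as an interaction: the change from unstimulated cells to 12 h of anti-IgM in IkL/L cells, minus the same change in WT cells. The contrast takes 8 of the 12 arrays in the series, 2 in each of 4 groups: IkL/L cells at 12 h of anti-IgM, unstimulated IkL/L cells, WT cells at 12 h of anti-IgM and unstimulated WT cells. All were splenic follicular B cells from C57Bl/6 mice aged 6 weeks, sorted as B220+ CD23hi CD21lo at over 98% purity, and IkL is an allele of Ikzf1, the gene that encodes Ikaros. Stimulated cells received goat anti-mouse IgM F(ab')2 at 10 µg/ml, and unstimulated cells were cultured without it for 3 h, so that the 12 h groups also differ from their baseline in time in culture. The remaining arrays hold 3 h of anti-IgM and enter the estimate of the spread. The labels give 2 independent experiments but no number of animals, so the p-values measure only the spread between these samples.

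Ikaros is a zinc finger transcription factor of lymphoid cells that binds DNA motifs with a GGGAA core and recruits, among others, the NuRD chromatin remodelling complex. It is known both to repress and to activate genes, and in mature B cells it is known as a brake on activation. Cross-linking of the antigen receptor by anti-IgM starts tyrosine kinase, calcium, ERK and NF-kB signalling, which brings immediate early genes up within hours and then growth and metabolic genes, while genes of the resting state are shut down. IkL is a hypomorphic allele made by insertion of a reporter into Ikzf1, and IkL/L mice retain a low level of Ikaros.

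The 12 h responses of the 2 genotypes were correlated across genes. Over 18193 genes, 1 probe set each, the correlation of the log2 response in IkL/L cells with that in WT cells was 0.86 (Pearson, across genes, which are not independent replicates), and the responses had standard deviations of 0.58 in IkL/L cells and 0.61 in WT cells. Of 2421 genes that passed the test at 12 h in both genotypes, 2420 moved in the same direction. Against this background the interaction was called (adjusted p under 0.05, limma, Benjamini-Hochberg over all genes) for 4 genes, 0.022% of those tested. All of them had the more positive change in IkL/L cells: the chemokine gene Ccl22, the receptor tyrosine kinase gene Axl, the ubiquitin ligase gene Rnf125 and Tceal8, a member of the transcription elongation factor A-like family. For Rnf125 the larger change was a fall in WT cells (log2 change -2.81), against -0.52 in IkL/L cells (adjusted p = 0.117 in limma). No gene was called lower, although 561 genes lay lower and 565 higher at an unadjusted p under 0.05.

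Within each genotype, arrays with the same replicate number deviated together in every condition. With that number as a block within genotype, 26 genes were called, 0.143% of those tested, and 20 of them were higher (0.11%) and 6 lower (0.033%). The 4 genes of the fit without the block were among them. Leaving out single arrays moved both counts. Without the block it was 2 without WT unstimulated replicate 1, 1 without WT unstimulated replicate 2, 2 without WT 12 h replicate 2 and 7 without IkL/L unstimulated replicate 1 or IkL/L 12 h replicate 1. With the block it was 48 without IkL/L 12 h replicate 1, 5 without IkL/L 12 h replicate 2, 5 without IkL/L unstimulated replicate 2, 46 without WT 12 h replicate 1, 10 without WT 12 h replicate 2, 3 without WT unstimulated replicate 1 and 2 without WT unstimulated replicate 2. Of the called genes, Ccl22 alone kept its call in all 8 leave-outs of both fits. With the block, Nod1 and Fmnl2 were called in 0 of 8 leave-outs, and Atp10a, Cdc25b, Cenpv, Cyp27a1, Lcor, Ngp and Sec24d in 1 of 8. With the replicate as a random block, chosen after seeing the data, 13 of the 26 genes were called. The other 13 had adjusted p of 0.0509 (Hepacam2), 0.0519 (Atp10a and Fmnl2), 0.057 (Fabp5), 0.0603 (Cdc25b), 0.0929 (Cyth4), 0.101 (Pogk), 0.104 (Lcor), 0.142 (Angptl1), 0.179 (Nrp1), 0.223 (Nr4a2), 0.244 (Sspn) and 0.868 (Ngp).

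**Figure D1:**
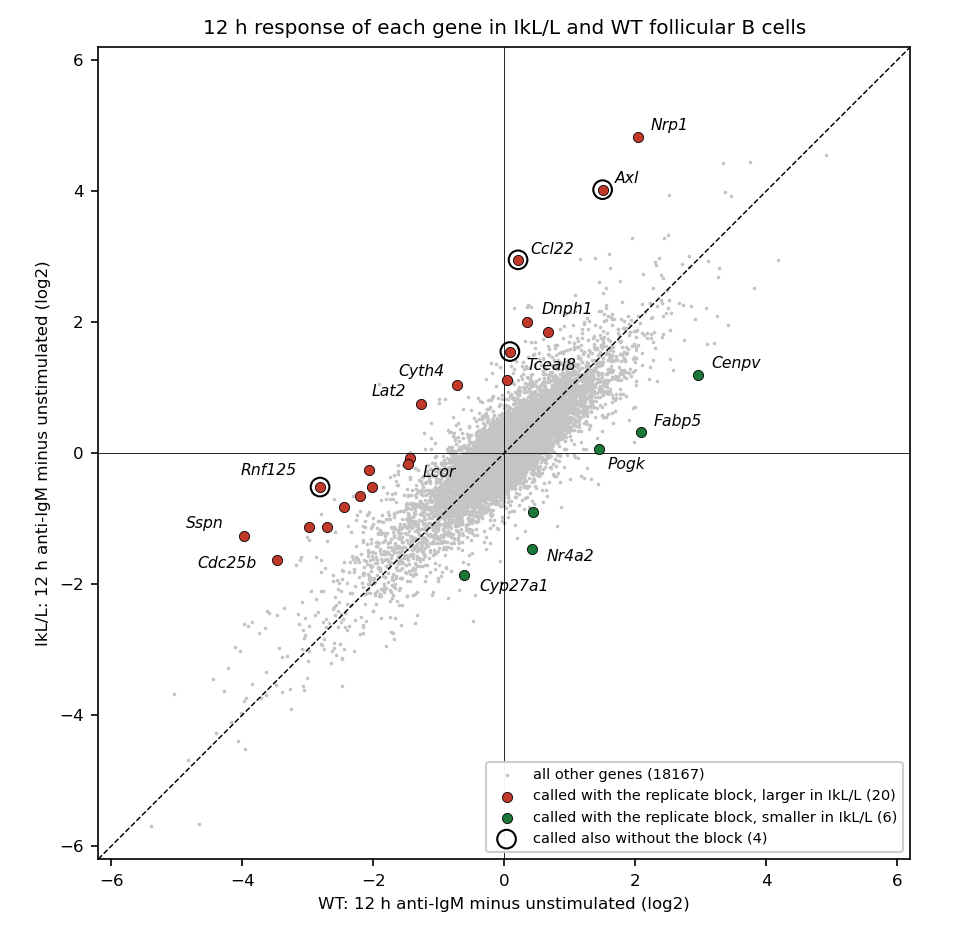
Log2 response at 12 h of anti-IgM in IkL/L cells (vertical axis) against WT cells (horizontal axis), 1 point per gene, with the dashed line marking equal responses. The 20 genes called with the replicate block and more positive in IkL/L cells are red, the 6 more negative are green, and the 4 called also without the block are ringed. Nrp1, Axl and Ccl22 stand above the line on the side where IkL/L cells rose, Rnf125, Sspn and Cdc25b on the side where WT cells fell further.

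The array values carry limits that bear on these genes. A signal floor was set 1 log2 unit above the highest array median, at 4.21, and of the 26 called genes 21 had at least 1 of the 8 arrays under it. Folds are therefore given as "at least" where the lower group has an array under the floor. With values raised to the floor, 16 of the 25 genes that could then be tested were still called with the block. WT replicate 1 stood apart from all other samples: Xist was between 10.01 and 10.69 in its arrays and at most 3.48 in the others, and the Y-linked Eif2s3y was at most 2.83 in its arrays and at least 8.30 in the others. Leaving either WT replicate out of every condition leaves 1 WT array per condition. With so few arrays the part of WT replicate 1 in the calls was not tested. B cell markers were high (Cd79a between 8.22 and 10.66 in the 8 arrays), and 0 of 8 T cell and 0 of 6 NK cell markers had a mean over the floor, while 3 of 6 dendritic cell, 5 of 11 myeloid and neutrophil and 4 of 6 plasma cell markers did. Signals of Ikzf1 were 9.59 and 8.98 in IkL/L cells at 12 h and 10.00 and 9.94 in unstimulated IkL/L cells, against 10.33 and 10.00 in WT cells at 12 h and 9.85 and 9.83 in unstimulated WT cells. Its interaction was -1.01 (SE 0.31, adjusted p = 0.637, and 0.157 with the block), and where its probes lie relative to the insertion is not known here, so it is no check of genotype.

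The RefSeq promoter windows (GRCm38.p6, 250 bases before to 50 after the gene start, 5′ to 3′ on the gene's strand) are shown for the 3 genes that were called in both fits, were higher in IkL/L cells at 12 h and have a window that can be printed here. They are Ccl22 at chr8:94745434-94745733 on the plus strand, Axl at chr7:25788684-25788983 on the minus strand and Tceal8 at chrX:136172202-136172501 on the minus strand. Capitals mark the Ikaros-type motif TGGGAA or its reverse complement TTCCCA, searched on both strands.
Ccl22: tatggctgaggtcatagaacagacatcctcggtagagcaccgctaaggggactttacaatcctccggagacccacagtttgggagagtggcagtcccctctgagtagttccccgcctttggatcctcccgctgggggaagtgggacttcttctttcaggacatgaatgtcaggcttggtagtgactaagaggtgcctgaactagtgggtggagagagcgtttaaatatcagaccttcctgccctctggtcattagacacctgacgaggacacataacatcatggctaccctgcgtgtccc
Axl: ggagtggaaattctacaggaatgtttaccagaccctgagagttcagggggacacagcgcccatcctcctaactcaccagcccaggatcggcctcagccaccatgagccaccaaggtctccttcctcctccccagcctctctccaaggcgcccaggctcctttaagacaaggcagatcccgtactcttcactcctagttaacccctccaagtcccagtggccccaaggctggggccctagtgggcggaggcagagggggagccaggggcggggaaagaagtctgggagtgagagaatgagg
Tceal8: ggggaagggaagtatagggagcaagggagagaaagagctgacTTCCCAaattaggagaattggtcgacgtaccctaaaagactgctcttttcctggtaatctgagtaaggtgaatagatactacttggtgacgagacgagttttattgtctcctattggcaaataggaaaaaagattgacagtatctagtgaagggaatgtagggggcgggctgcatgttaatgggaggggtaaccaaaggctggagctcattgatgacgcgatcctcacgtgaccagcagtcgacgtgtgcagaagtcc
The Tceal8 window held 1 match to the full motif, starting at base 43, and those of Ccl22 and Axl held 0. Copies of the shorter GGGAA core with another first base were not searched for or marked, and each of these windows holds such copies. Over all 32851 windows 8397 held the motif (25.6%), and of the 22 called genes with a window 5 held it in at least 1 window (22.7%). The first share is per window and the other per gene, so they are not of the same unit. A match is a description of these letters and not a site of binding.

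The 26 genes fell into kinds by where the genotypes differed. The interaction equals the IkL/L minus WT difference at 12 h less the same difference in unstimulated cells and shares their arrays, so this split is a description. In the fit without the block, 7 higher genes and 1 lower gene differed between genotypes at 12 h and not at rest, and 11 higher and 3 lower genes differed at rest and not at 12 h. Only Tceal8 passed in both conditions, and Cyth4, Ngp and Nr4a2 passed in neither. In all genes tested, 1.13% differed between IkL/L and WT cells at rest and 0.616% at 12 h. Of the 20 higher genes, 9 rose in IkL/L cells and 3 in WT cells, while 6 fell in IkL/L cells and 12 in WT cells. In all genes, 9.72% rose in IkL/L cells and 10.1% in WT cells, and 7.87% fell in IkL/L cells and 8.66% in WT cells. The 20 genes were selected for an IkL/L response above the WT response in these arrays, so their counts are a description too.

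**Figure D2:**
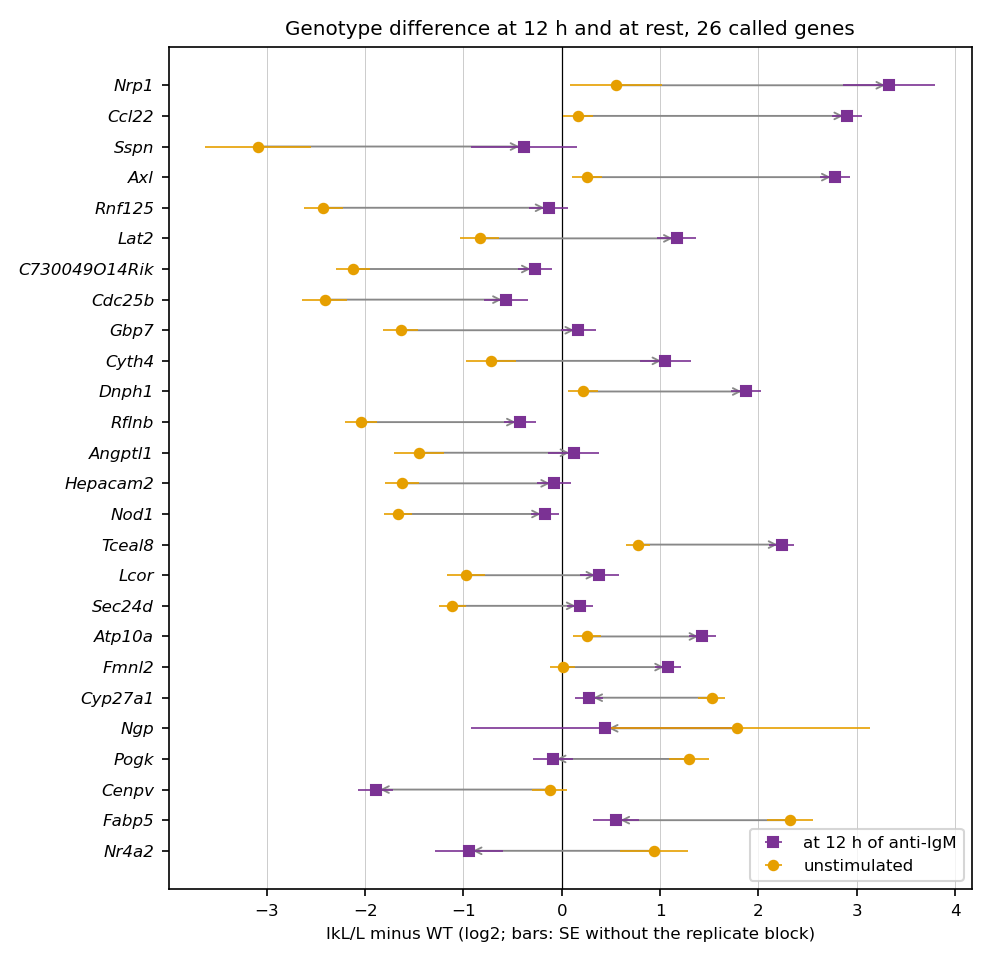
IkL/L minus WT difference in log2 signal at 12 h of anti-IgM (squares) and in unstimulated cells (circles) for the 26 genes called with the block, ordered by the interaction, which is the length of each arrow; bars are standard errors of the fit without the block. Ccl22, Axl, Dnph1 and Fmnl2 start near 0 and end above it, whereas Sspn, Rnf125, Cdc25b and Rflnb start below 0 and end near it.

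Ccl22, the chemokine that attracts CCR4-bearing T cells, rose at 12 h in IkL/L cells (log2 change 2.95, adjusted p = 4.59e-06), and its change in WT cells was 0.21 (adjusted p = 0.458). Its log2 signal was 6.54 and 6.82 in IkL/L cells at 12 h and 3.69 and 3.77 in unstimulated IkL/L cells, against 3.90 and 3.65 in WT cells at 12 h and 3.51 and 3.62 in unstimulated WT cells. Of these 8 arrays, only those of IkL/L cells at 12 h exceeded the floor, and they overlapped no other group of the 4. The interaction was 2.74 (SE 0.22, adjusted p = 0.00326 in limma, and 0.000855 with the block), and the level at 12 h was at least 5.56-fold higher in IkL/L cells than in WT cells. At 3 h the interaction was 0.13 (adjusted p = 0.988), a contrast in which 7 genes passed (0.0385%). The later difference, the change from 3 h to 12 h in IkL/L cells minus that in WT cells, was 2.61 (adjusted p = 0.00514). It uses no unstimulated array but shares the 12 h arrays, and 7 genes (0.0385%) passed it.

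Axl encodes a receptor tyrosine kinase of the TAM family that binds Gas6. Its signal was 7.22 and 7.04 in IkL/L cells at 12 h and 3.14 and 3.07 in unstimulated IkL/L cells, against 4.56 and 4.14 in WT cells at 12 h and 2.81 and 2.89 in unstimulated WT cells. The gene rose in both genotypes, and the IkL/L 12 h arrays lay above all others. The interaction was 2.52 (SE 0.22, adjusted p = 0.00429, and 0.00314 with the block), and the level at 12 h was at least 6.70-fold higher in IkL/L cells than in WT cells. Without WT unstimulated replicate 2 the adjusted p was 0.0523. Unlike for Ccl22, the 3 h interaction was of similar size (2.07, adjusted p = 0.0263) and the later difference was 0.45 (adjusted p = 0.825); whether Axl and Ccl22 differ from each other in this was not tested.

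Markers of myeloid and dendritic cells were measured in the same arrays. Adgre1, a macrophage marker gene, was at 5.16 and 5.94 in IkL/L cells at 12 h and 3.69 and 3.61 in unstimulated IkL/L cells, against 4.80 and 5.03 in WT cells at 12 h and 3.92 and 4.20 in unstimulated WT cells. Its interaction was 1.04 (adjusted p = 0.625, and 0.187 with the block), the highest of the 11 myeloid and neutrophil markers measured. Only 2 of the 11 had a positive interaction, and the list median was -0.31. The dendritic cell list had a median signal of 3.93 and 4.23 in IkL/L cells at 12 h and 4.32 and 4.29 in unstimulated IkL/L cells, against 3.93 and 3.65 in WT cells at 12 h and 3.67 and 3.86 in unstimulated WT cells. The part of such cells in the results for Ccl22 and Axl was not tested.

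Tceal8 was the only X-linked gene among the 4. Its signal was 5.27 and 5.24 in IkL/L cells at 12 h and 3.58 and 3.83 in unstimulated IkL/L cells, against 2.96 and 3.09 in WT cells at 12 h and 2.99 and 2.88 in unstimulated WT cells. In IkL/L cells it rose at 12 h, whereas all WT arrays were under the floor. The interaction was 1.46 (SE 0.17, adjusted p = 0.0488, and 0.0167 with the block), and the later difference was 1.5 (adjusted p = 0.024). The call without the block held in 1 of 8 leave-outs, with adjusted p up to 0.252 without WT unstimulated replicate 2. The WT replicates, of which replicate 1 alone carried Xist, were both under the floor for Tceal8. The part of this difference between samples in the Tceal8 result was not tested.

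Nrp1, a coreceptor for semaphorins and VEGF, had the largest interaction among the called genes, and by its brightest probe set its call needed the block. Its signal was 8.0 and 8.47 in IkL/L cells at 12 h and 2.82 and 3.99 in unstimulated IkL/L cells, against 4.22 and 5.58 in WT cells at 12 h and 2.85 and 2.86 in unstimulated WT cells. In each genotype replicate 2 lay above replicate 1 at 12 h, and the IkL/L 12 h arrays were above all WT arrays. The interaction was 2.78 (SE 0.66, adjusted p = 0.431, and SE 0.38, adjusted p = 0.0319 with the block, a call that held in 2 of 8 leave-outs). With a random block the adjusted p was 0.179. The level at 12 h was 10.1-fold higher in IkL/L cells than in WT cells (log2 difference 3.33, SE 0.47, adjusted p = 0.0146). All 4 of its probe sets pointed the same way, with interactions of 2.48 to 3.19. When every probe set was tested on its own, the one at 3.19 passed without the block (adjusted p = 0.00387 in limma).

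Dnph1, Atp10a and Fmnl2 had the same shape at lower signal. Dnph1, a hydrolase of deoxynucleoside monophosphates, was at 5.25 and 5.68 in IkL/L cells at 12 h and 3.48 and 3.45 in unstimulated IkL/L cells, against 3.74 and 3.45 in WT cells at 12 h and 3.26 and 3.25 in unstimulated WT cells (interaction 1.66, SE 0.22, adjusted p = 0.0542, and 0.0179 with the block). At 12 h it was at least 2.39-fold higher in IkL/L cells than in WT cells. Atp10a, a phospholipid flippase, had an interaction of 1.17 (adjusted p = 0.137, and 0.0397 with the block), and IkL/L cells at 12 h held the only arrays over the floor, at 4.86 and 4.92. Fmnl2, a formin that nucleates actin filaments, was under the floor in all 8 arrays, at 3.90 and 4.13 in IkL/L cells at 12 h against 2.94 and 2.93 in WT cells at 12 h, so that no fold is given (interaction 1.07, adjusted p = 0.145, and 0.0397 with the block). Atp10a, Fmnl2, Lcor and C730049O14Rik lie outside the rule for named genes and were named after their values were seen.

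**Figure D3:**
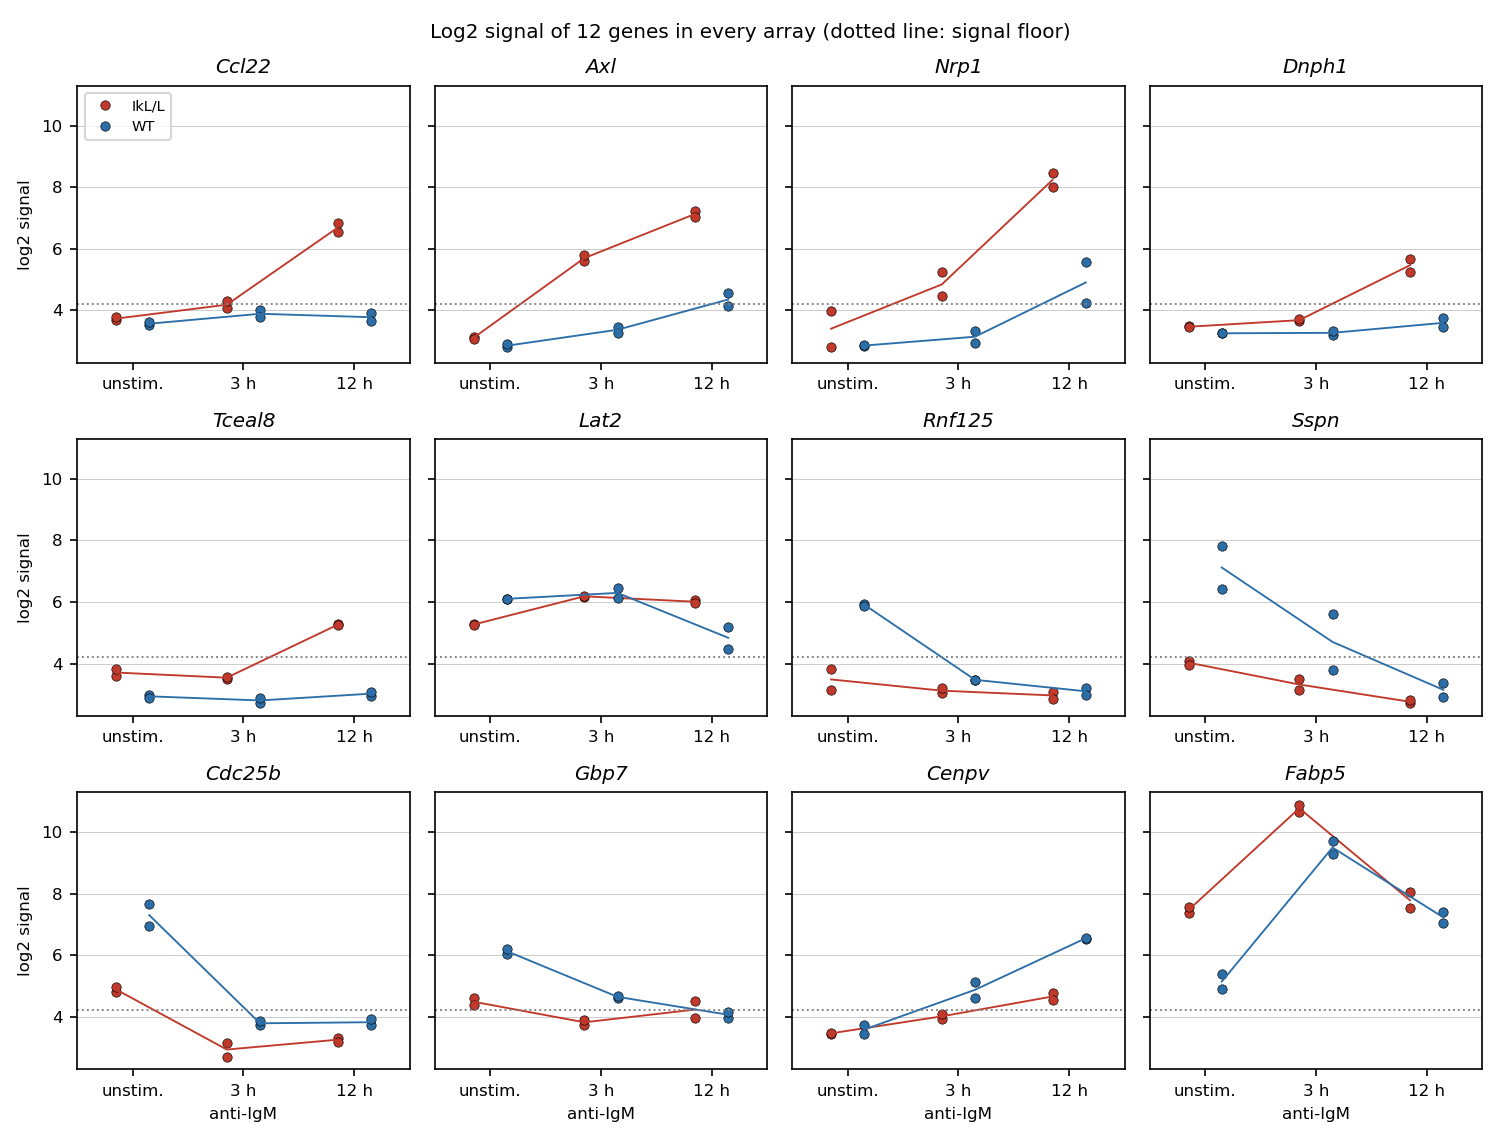
Log2 signal of 12 genes in every array of the series, with IkL/L arrays in red left of WT arrays in blue at each time; each point is an array, lines join group means and the dotted line is the floor of 4.21. The IkL/L points of Ccl22, Dnph1 and Tceal8 lie above their WT points at 12 h, those of Rnf125, Sspn, Cdc25b and Gbp7 lie below their WT points when unstimulated, and those of Cenpv lie below at 12 h.

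Lat2 and Cyth4 had responses of opposite sign in the 2 genotypes. Lat2, also called NTAL, is a transmembrane adaptor phosphorylated after B cell receptor ligation. Its signal was 6.05 and 5.96 in IkL/L cells at 12 h and 5.28 and 5.26 in unstimulated IkL/L cells, against 5.19 and 4.48 in WT cells at 12 h and 6.10 and 6.10 in unstimulated WT cells. All 8 arrays were over the floor. Lat2 rose 1.67-fold in IkL/L cells (adjusted p = 0.0268) and fell 2.40-fold in WT cells (adjusted p = 0.0014), with an interaction of 2.01 (SE 0.28, adjusted p = 0.06, and 0.0167 with the block). At 12 h it was 2.25-fold higher in IkL/L cells than in WT cells (adjusted p = 0.034), and at rest the IkL/L minus WT difference was -0.84 (adjusted p = 0.0963). Cyth4, an exchange factor for ARF GTPases, was at 4.98 and 5.52 in IkL/L cells at 12 h and 4.03 and 4.37 in unstimulated IkL/L cells, against 4.04 and 4.35 in WT cells at 12 h and 4.89 and 4.95 in unstimulated WT cells. Cyth4 rose at least 1.94-fold in IkL/L cells (adjusted p = 0.0181), and its change in WT cells was -0.73 (adjusted p = 0.0841). Its interaction was 1.77 (SE 0.37, adjusted p = 0.307, and SE 0.19, adjusted p = 0.0138 with the block).

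The larger set was of genes that fell in WT cells by 12 h and were lower in IkL/L cells at rest. All 11 did both. They were grouped by their difference at rest, and the interaction contains that difference and the WT change, so this is a description. Of all genes, 0.533% were lower in unstimulated IkL/L cells than in unstimulated WT cells, a share that is no test of the 11. The 3 h interaction, which shares the unstimulated arrays, was between 0.74 (Lcor) and 2.07 (Rnf125, adjusted p = 0.059) for the 11 genes in the fit without the block, and it passed for C730049O14Rik (1.88, adjusted p = 0.0419) and Rflnb (1.76, adjusted p = 0.0419). Their later differences lay between -0.14 (Rflnb) and 1.00 (Gbp7), with adjusted p between 0.437 and 0.992. Rnf125, an E3 ubiquitin ligase, was at 3.09 and 2.84 in IkL/L cells at 12 h and 3.14 and 3.83 in unstimulated IkL/L cells, against 3.21 and 2.99 in WT cells at 12 h and 5.94 and 5.88 in unstimulated WT cells. Only the unstimulated WT arrays were over the floor. The interaction was 2.29 (SE 0.28, adjusted p = 0.0497, and 0.0167 with the block), and at rest the signal was at least 3.26-fold lower in IkL/L cells than in WT cells. Without the block the call held in 2 of 8 leave-outs, with adjusted p up to 0.278 without WT unstimulated replicate 2.

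Sspn, which encodes the dystrophin-associated protein sarcospan, showed the same pattern with a wide spread in WT cells. Its signal was 2.71 and 2.81 in IkL/L cells at 12 h and 4.09 and 3.97 in unstimulated IkL/L cells, against 2.93 and 3.37 in WT cells at 12 h and 6.42 and 7.82 in unstimulated WT cells. WT replicate 2 was above WT replicate 1 in both conditions (interaction 2.70, SE 0.76, adjusted p = 0.568, and SE 0.37, adjusted p = 0.0319 with the block). The call held in 3 of 8 leave-outs, and with a random block the adjusted p was 0.244. Cdc25b, a phosphatase that activates cyclin-dependent kinases, was at 3.32 and 3.19 in IkL/L cells at 12 h and 4.80 and 4.97 in unstimulated IkL/L cells, against 3.72 and 3.92 in WT cells at 12 h and 6.93 and 7.66 in unstimulated WT cells. It fell in both genotypes and was 5.32-fold lower in unstimulated IkL/L cells than in unstimulated WT cells (interaction 1.84, SE 0.32, adjusted p = 0.156, and 0.0319 with the block). As all IkL/L and WT arrays of Cdc25b at 12 h were under the floor, the size of its fall has only a lower bound in either genotype.

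Gbp7, an interferon-inducible guanylate-binding protein, was at 4.5 and 3.97 in IkL/L cells at 12 h and 4.61 and 4.37 in unstimulated IkL/L cells, against 3.97 and 4.16 in WT cells at 12 h and 6.05 and 6.22 in unstimulated WT cells. It was 3.12-fold lower in unstimulated IkL/L cells than in unstimulated WT cells, and its second probe set gave an interaction of 1.73 beside the 1.81 of the first (adjusted p = 0.06, and 0.0167 with the block). Nod1, a cytosolic sensor of bacterial peptidoglycan, had an interaction of 1.5 (adjusted p = 0.06, and 0.0367 with the block), and Rflnb, a filamin-binding protein, one of 1.62 (adjusted p = 0.06, and 0.0167 with the block). Both were over the floor in unstimulated WT cells at 5.51 and 5.47 (Nod1) and 6.05 and 6.51 (Rflnb). The secreted factor gene Angptl1, the adhesion protein gene Hepacam2, the COPII coat gene Sec24d and the clone gene C730049O14Rik had interactions of 1.57, 1.55, 1.29 and 1.85. The call of Angptl1 held in 4 of 8 leave-outs, and its adjusted p with a random block was 0.142. Lcor, a nuclear receptor corepressor, was the only one of the 11 with all 8 arrays over the floor, at 6.18 and 6.06 in IkL/L cells at 12 h and 6.32 and 6.08 in unstimulated IkL/L cells, against 6.03 and 5.45 in WT cells at 12 h and 7.34 and 7.0 in unstimulated WT cells (interaction 1.36, adjusted p = 0.3, and 0.0338 with the block). A second Lcor probe set over the floor gave -0.25. Further probe sets of Axl, Lat2, Atp10a, Sspn, Angptl1 and Cyp27a1 were under the floor and gave -0.27 to 0.36, and the second of Rflnb gave 1.58. These are bulk samples, in which fewer cells that express a gene and less RNA per cell cannot be told apart.

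All 6 genes called lower needed the block. Fabp5, a fatty acid binding protein, was at 7.52 and 8.04 in IkL/L cells at 12 h and 7.36 and 7.58 in unstimulated IkL/L cells, against 7.04 and 7.42 in WT cells at 12 h and 4.89 and 5.39 in unstimulated WT cells. It was 5.01-fold higher in unstimulated IkL/L cells than in unstimulated WT cells, and it rose 4.24-fold in WT cells (adjusted p = 0.000205). In IkL/L cells the change was 0.31 (adjusted p = 0.499). The interaction was -1.77 (SE 0.33, adjusted p = 0.224, and SE 0.17, adjusted p = 0.00881 with the block), and its second probe set gave -1.42. Pogk, a KRAB domain protein, had the same form, at 7.31 and 7.75 in IkL/L cells at 12 h and 7.23 and 7.70 in unstimulated IkL/L cells, against 7.49 and 7.76 in WT cells at 12 h and 6.18 and 6.17 in unstimulated WT cells (interaction -1.38, adjusted p = 0.308, and 0.0167 with the block). Of these 8 arrays, only those of unstimulated WT cells lay apart for both genes, and a dimmer Pogk probe set gave -0.06. At 3 h both genes were higher than at 12 h in each genotype: Fabp5 was at 10.66 and 10.88 in IkL/L cells and 9.29 and 9.70 in WT cells, and Pogk was at 8.72 and 9.10 in IkL/L cells and 8.35 and 8.47 in WT cells. The sterol hydroxylase gene Cyp27a1 was higher in unstimulated IkL/L cells, at 5.59 and 5.69, than in unstimulated WT cells, at 4.23 and 4.0, and was under the floor in both genotypes at 12 h (interaction -1.25, adjusted p = 0.106, and 0.0397 with the block).

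Cenpv, a centromere protein, was the lower gene that differed at 12 h. Its signal was 4.78 and 4.54 in IkL/L cells at 12 h and 3.45 and 3.48 in unstimulated IkL/L cells, against 6.53 and 6.57 in WT cells at 12 h and 3.74 and 3.43 in unstimulated WT cells. Both genotypes rose, and at 12 h the signal was 3.71-fold lower in IkL/L cells than in WT cells (adjusted p = 0.00188), with an interaction of -1.77 (SE 0.25, adjusted p = 0.0604, and 0.0397 with the block). Nr4a2, an orphan nuclear receptor of the immediate early response, was at 4.34 and 4.55 in IkL/L cells at 12 h and 5.32 and 6.49 in unstimulated IkL/L cells, against 5.49 and 5.30 in WT cells at 12 h and 5.18 and 4.76 in unstimulated WT cells. Its interaction was -1.89 (SE 0.49, adjusted p = 0.505, and SE 0.29, adjusted p = 0.0496 with the block, and adjusted p = 0.223 with a random block). The call held in 2 of 8 leave-outs, and its 6 probe sets ranged from -1.89 to -0.01.

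Ngp, a granule protein of neutrophils, was called lower with the block (-1.34, SE 0.17, adjusted p = 0.0182) and not without it (SE 1.92, adjusted p = 0.967). Its signal was 4.53 and 6.43 in IkL/L cells at 12 h and 5.38 and 7.38 in unstimulated IkL/L cells, against 3.58 and 6.50 in WT cells at 12 h and 3.13 and 6.08 in unstimulated WT cells. Replicate 2 was above replicate 1 in every group. In the fit without the block, the sign turned to 0.13 without WT unstimulated replicate 1 and 0.12 without WT 12 h replicate 2. The other neutrophil genes S100a8, S100a9 and Camp had interactions of -1.20, -1.68 and -1.92 (adjusted p with the block 0.443, 0.223 and 0.324) and were also higher in replicate 2 of every group. Of 11 myeloid and neutrophil markers measured, 5 had a mean over the floor and 2 had a positive interaction, and the list's median signal lay between 3.61 and 3.94 in the IkL/L arrays and between 3.28 and 4.51 in the WT arrays. The part of such cells in the result for Ngp was not tested.

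Genes of the naming rule that did not pass either test are given as values. Among those with the smallest unadjusted p in the negative direction were Kdm6b, a histone demethylase (-1.33, adjusted p with the block 0.069), Zbtb10 (-1.40, 0.108), Sbf2 (-1.14, 0.122), Nrgn (-1.19, 0.0843), Ehd1 (-0.74, 0.151) and Klf4 (-1.23, 0.097). For Klf4, a Krüppel-like factor linked to quiescence, the signal was 2.75 and 2.71 in IkL/L cells at 12 h and 6.71 and 6.52 in IkL/L cells at 3 h, against 3.01 and 3.00 in WT cells at 12 h and 4.27 and 4.5 in WT cells at 3 h. Its later difference was -2.50 and passed (adjusted p = 0.00767 in limma without the block). Regulators and markers of activation did not pass: Myc was -0.63, Egr1 -0.88, Cd69 0.11, Cd86 0.90, Ccnd2 -0.47, Cdkn1b -0.31, Ikzf3 -0.38, Fcgr2b 0.44 and Cd22 0.78, with adjusted p between 0.127 and 0.935 in the fit with the block. The sign of Cd69, Cdkn1b and Ccnd2 turned under at least 1 other setting.

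Gene groups were then read against all genes tested, for which the median interaction was -0.02 and 8427 of 18193 values were positive. Of all genes, 565 were higher and 561 lower at an unadjusted p under 0.05 in limma without the block. Scaling to housekeeping genes moved the median of all genes by -0.17, to -0.19. Of 24 lists other than cell markers, only 2 held a gene called by its brightest probe set. These were Ccl22 among 19 secreted chemokines and cytokines (list median -0.08), and Nr4a2, with the block, among 24 immediate early and AP-1 factors. Type I interferon response genes, induced by secreted interferon through STAT and IRF factors, had the highest median, 1.05, with 19 of 19 values positive and 0 called in either fit (1 at an unadjusted p under 0.05). Their median signal was 5.67 and 5.32 in IkL/L cells at 12 h and 5.55 and 6.55 in unstimulated IkL/L cells, against 6.44 and 3.68 in WT cells at 12 h and 7.72 and 4.44 in unstimulated WT cells. WT replicate 1 was above WT replicate 2 at rest for all 19 genes of this list, and for 8533 of all 18193 genes. The list's median interaction was -0.10 without WT unstimulated replicate 1, 2.49 without WT unstimulated replicate 2 and 2.14 without WT 12 h replicate 1. It was 0.19 without WT 12 h replicate 2 and 0.66 without IkL/L unstimulated replicate 1. The part of this difference between WT samples in the value was not tested.

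Cholesterol synthesis and uptake genes rose in both genotypes, 13 of 16 in IkL/L cells and 14 of 16 in WT cells (9.72% and 10.1% of all genes). Their median interaction was 0.36, with 14 of 16 positive and 0 called (3 at an unadjusted p under 0.05, all higher), and it was 0.22 without IkL/L unstimulated replicate 1. Of all 18193 genes, 565 were higher at an unadjusted p under 0.05. For Cyp51, which encodes lanosterol demethylase, the signal was 8.40 and 8.31 in IkL/L cells at 12 h and 4.26 and 4.56 in unstimulated IkL/L cells, against 8.0 and 8.02 in WT cells at 12 h and 5.42 and 5.56 in unstimulated WT cells (interaction 1.43, SE 0.24, adjusted p = 0.137, and 0.0698 with the block). Its IkL/L arrays were above the WT arrays at 12 h and below them at rest. Inhibitory regulators of B cell receptor signalling had a median of 0.19, with 15 of 24 positive and 0 called (7 at an unadjusted p under 0.05, all higher), and their median was 0.28 without IkL/L 12 h replicate 2, 0.11 without WT 12 h replicate 1 and 0.04 without WT unstimulated replicate 2. Among them the adhesion receptor gene Pecam1 had 1.30 (adjusted p with the block 0.0724) and Pdcd1, which encodes PD-1, had 1.08 (0.175). Pdcd1 was at 7.78 and 8.03 in IkL/L cells at 12 h and 3.22 and 3.73 in unstimulated IkL/L cells, against 6.48 and 7.03 in WT cells at 12 h and 3.58 and 3.24 in unstimulated WT cells. Members of lists other than Ccl22 and Nr4a2 were named after their values were seen.

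Lists of early response genes lay below the median of all genes. NF-kB targets and inhibitors had a median of -0.49, with 2 of 19 positive and 0 called (3 at an unadjusted p under 0.05, all lower). Of all 18193 genes, 561 were lower at an unadjusted p under 0.05. Immediate early and AP-1 factors had a median of -0.36, with 5 of 24 positive, 0 called without the block (5 at an unadjusted p under 0.05, all lower) and 1 called with it. The median IkL/L minus WT difference of the NF-kB list was 0.41 at rest and -0.08 at 12 h. For the immediate early list it was 0.32 at rest and -0.01 at 12 h. Ccl4, a chemokine of activated B cells, was at 7.61 and 8.46 in IkL/L cells at 12 h and 7.37 and 8.36 in unstimulated IkL/L cells, against 8.05 and 8.43 in WT cells at 12 h and 6.19 and 6.33 in unstimulated WT cells (interaction -1.81, adjusted p = 0.675, and 0.068 with the block). Fosl2 and Nr4a3 had -1.92 and -1.91 (adjusted p with the block 0.101 and 0.116). In unstimulated IkL/L cells replicate 2 was above replicate 1 for 21 of the 24 immediate early genes, and for 9496 of all 18193 genes. Without IkL/L unstimulated replicate 2 the medians were -0.15 for the immediate early genes and -0.12 for the NF-kB genes, and without IkL/L unstimulated replicate 1 they were -0.78 and -0.73; the NF-kB median was -0.32 without WT 12 h replicate 2. The part of that sample in the values was not tested.

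**Figure D4:**
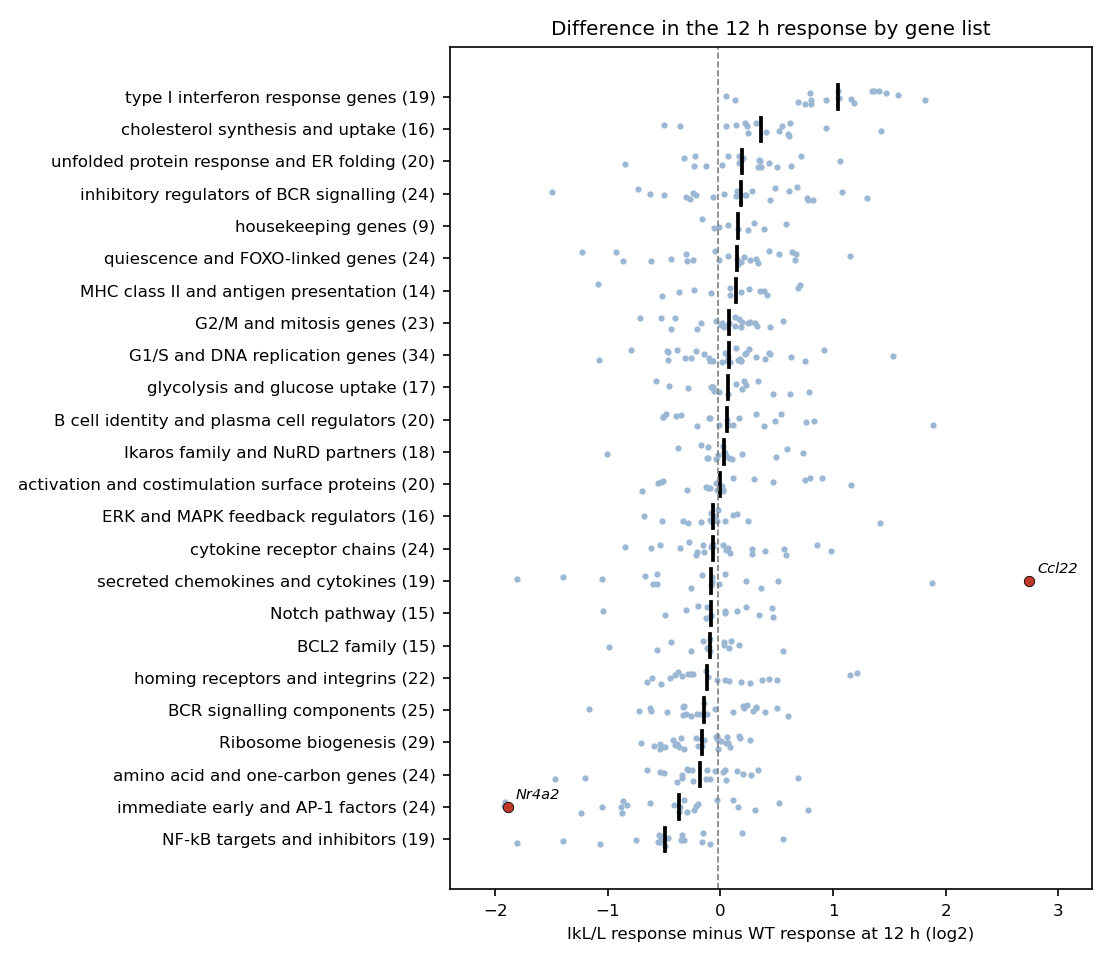
Interaction at 12 h (IkL/L response minus WT response, log2) for the members of 24 gene lists, with the number measured in parentheses; black bars are list medians, the dashed line is the median of all genes (-0.02), and red points are genes called with the block. Interferon response genes have the highest median (1.05) and NF-kB genes the lowest (-0.49), and Ccl22 and Nr4a2 are the called members.

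Other groups lay closer to the median of all genes. Ribosome biogenesis genes, which rose in 23 of 29 cases in IkL/L cells and 26 of 29 in WT cells (9.72% and 10.1% of all genes), had a median interaction of -0.16. Amino acid and one-carbon genes had -0.19, the unfolded protein response and ER folding genes 0.19, glycolysis and glucose uptake 0.07, G1/S and DNA replication 0.08, and MHC class II and antigen presentation 0.14. None of their members was called in either fit. Quiescence and FOXO-linked genes fell in 19 of 24 cases in each genotype (7.87% of all genes in IkL/L cells and 8.66% in WT cells), and their median interaction was 0.15. Components of B cell receptor signalling had -0.14, Notch pathway genes -0.08 and the BCL2 family -0.10, again with 0 called.

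**Figure D5:**
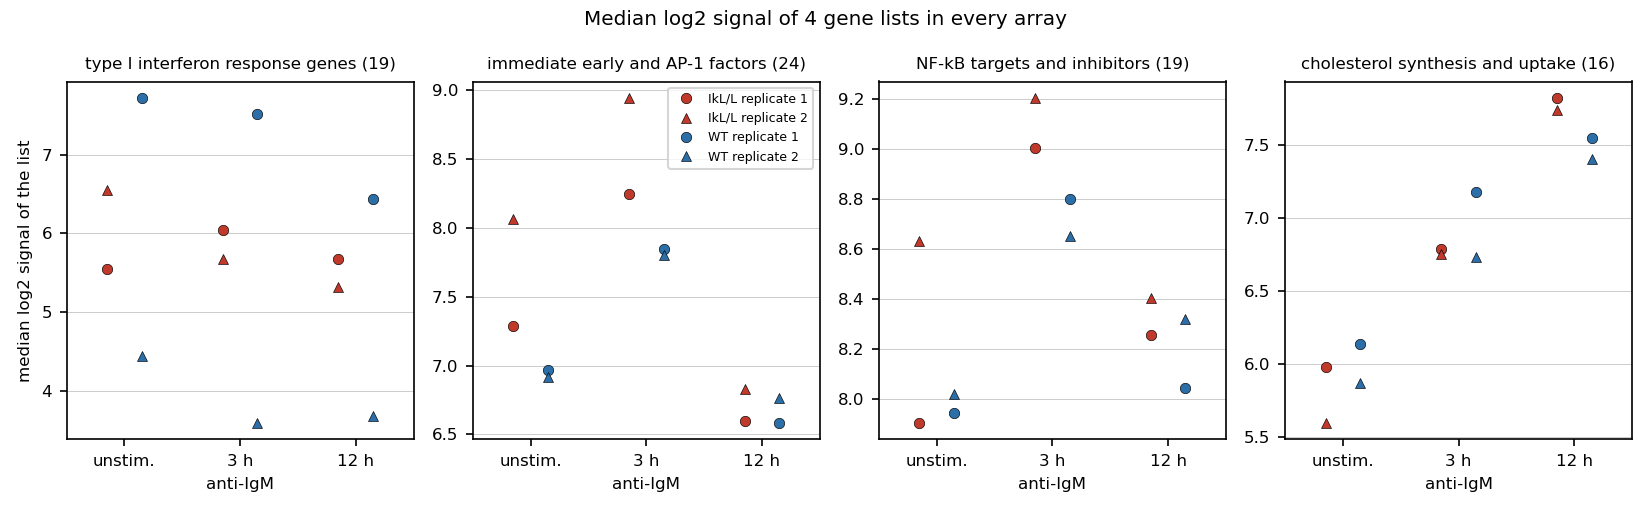
Median log2 signal of 4 gene lists in every array, IkL/L in red left of WT in blue at each time, circles for replicate 1 and triangles for replicate 2; the vertical axes differ between panels and do not start at 0. WT replicate 1 lies far above WT replicate 2 for the interferon genes (7.72 and 4.44 at rest), and IkL/L replicate 2 lies above IkL/L replicate 1 at rest for the immediate early genes (8.06 and 7.29).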

How the data were processed

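RNA from sorted, cultured B cells (100 ng of total RNA, labelled in a two-cycle assay) was hybridised to Affymetrix mouse 3' arrays. The authors made the deposited log2 signals with RMA (no version is given), per the submitters' processing notes; the number of arrays limits the precision. Probe sets with 1 gene symbol in the platform annotation (34945 of 45037) were kept, and each of 18193 genes was represented by its brightest probe set (mean of 12 arrays).

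A group-means model of all arrays was fitted with limma 3.58.1 in R 4.3.3 (lmFit, eBayes), with Benjamini-Hochberg adjustment over all genes and a threshold of 0.05. The interaction was fitted without and with the replicate number as a fixed block within genotype. The numbers pair the samples from the data: deviations from the group means (6065 bright genes) correlated between arrays of 1 number at 0.546 to 0.619 within WT and 0.354 to 0.49 within IkL/L. Between arrays of 1 number across genotypes the correlations were 0.026 to 0.31, with 8 of 9 pairs over 0.1. The block within genotype leaves the spread between replicates out of IkL/L against WT contrasts. These are therefore taken from the fit without that block, as are the responses of each genotype. The fits were tested on simulated data.

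Members, gene lists and tests were chosen with earlier results of these data known. Named were the 15 largest calls per direction without the block, the 10 largest per direction called only with it, genes of smallest p filling a direction to 10, up to 3 called members per list, and 10 fixed genes. Alternatives changed the block, arrays, probe set rule, filter, floor, moderation, weights and scaling.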

Additional observations from a re-analysis of the deposited data

Results flagged for a closer look

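In each of 4 genes the response at 12 h differed between the genotypes by the interaction test itself (limma without the block). The IkL/L response minus the WT response was 2.74 for Ccl22, 2.52 for Axl, 2.29 for Rnf125 and 1.46 for Tceal8, on the log2 scale. For Ccl22, Axl and Tceal8 the IkL/L 12 h arrays exceeded those of the WT cells at 12 h, and for Rnf125 the unstimulated WT arrays exceeded all others. The other 6 of the 8 arrays were under the floor for Rnf125, so the size of its change in IkL/L cells could not be read. Groups of 2 arrays are too small for a test of single outlying samples.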

How the results depend on the processing

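With the replicate block within genotype (pairing by number) 26 genes were called, 20 higher and 6 lower, against 4, 4 and 0 without it; a block shared by both genotypes gave 19, 15 and 4, and a random block, chosen after seeing the data, 14, 12 and 2 (consensus correlation 0.166). In the fit without the block, the counts called, higher and lower were 2, 2 and 0 with only the 8 arrays compared, 13, 12 and 1 with the mean of all probe sets, 24, 20 and 4 with values raised to the floor (8729 genes tested), 7, 7 and 0 with an intensity trend, 5, 5 and 0 with array weights or median centring, 3, 3 and 0 without the dimmest genes or under housekeeping scaling, and 7, 7 and 0 with every probe set on its own (45037 tests, added later). With the block, itself varied after seeing the data, they were 1, 1 and 0 with only the 8 arrays, 22, 17 and 5 with the floor, 26, 19 and 7 without the dimmest genes, and 39, 18 and 21 under housekeeping scaling, which turned the split of 20 higher to 6 lower. That scaling moved the median interaction of all genes by -0.17, to -0.19. Leaving out single arrays gave 1 to 7 calls (1 to 7 higher, 0 to 0 lower) without the block and 2 to 48 (2 to 33 higher, 0 to 15 lower) with it. With a replicate dropped from every condition, 1 gene (IkL/L replicate 1; not among the 26) or 0 genes (IkL/L replicate 2, WT replicate 1 and WT replicate 2) was called. Causes of these shifts were not tested, beyond the fewer samples or other tests each setting makes.

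The sign turned for 4 named genes, by the estimates of the fit without the block. Cd69 was -0.053 under housekeeping scaling, -0.025 with all WT replicate 1 arrays left out, -0.24 with all IkL/L replicate 2 arrays left out, and between -0.26 and 0.49 over single arrays. Cdkn1b was 0.093 with the mean of all probe sets, 0.24 with all IkL/L replicate 1 arrays left out, and between -0.73 and 0.12 over single arrays. Ccnd2 was 0.24 with all IkL/L replicate 2 arrays left out, and Ngp lay between -2.81 and 0.13 over single arrays. Over all named genes and settings, 841 values kept their sign and their side of the threshold, 76 newly passed it, 36 no longer passed and 12 changed sign. Signals near background limit the result: 21 of the 26 called genes had an array under the floor.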

Other observations

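Tested probe set by probe set, the interaction was called for 7 of 45037 without the block and 47 with it. Of the 7, the probe sets of single genes belonged to Ccl22, Axl, Tceal8, Nrp1 and Pigr, and 2 carried no single symbol. The probe set of Rnf125 was not among them (adjusted p = 0.0627 in limma without the block). For Nrp1 this was a dimmer probe set (3.19, adjusted p = 0.00387) than the one that stood for the gene. Pigr, which encodes the receptor that carries polymeric immunoglobulin across epithelia, had 1.96 (SE 0.18, adjusted p = 0.009). Of the 47, 8 carried no single symbol and the rest belonged to 35 genes, among them Sdc1 (1.99, adjusted p with the block 0.0361), the plasma cell marker syndecan-1, which was not called by its brightest probe set. The same held for Hmgcs1 of the cholesterol list (1.36, adjusted p with the block 0.0459). It also held for Ceacam1 of the list of inhibitory regulators (1.61, adjusted p with the block 0.0459). The probe sets named here were chosen after their values were seen.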
